A study of Mus musculus with 14 samples.

Results

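Snai1, Snai2, Twist1 and Cdh2, 4 genes that mark mesenchymal cells, were measured by RNA sequencing while mouse embryonic fibroblasts were being reprogrammed to pluripotency. They were chosen by gene symbol, with earlier results of these data known, and are 4 of the 26962 genes listed in any of the 14 libraries. All cells were of strain OG2/129SV, grew in medium for embryonic stem cells that contained LIF, and had received Oct4, Sox2, Klf4 and c-Myc. The Cdk9-DN cells carried Cdk9-DN as well, whose name denotes a dominant-negative Cdk9, and the control cells had received a control vector in its place. Both kinds of cell were collected 3, 4, 5 and 10 days after infection, with 1 library per vector at day 3 and 2 per vector at each later day, so that there were 8 groups. The labels do not give the share of cells that took up each factor, and fibroblasts without the factors were not analysed here.

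In the deposited coordinates (mouse build mm9), Snai1 (ENSMUSG00000042821) lies on chromosome 2 from 167363695 to 167368314, Snai2 (ENSMUSG00000022676) on chromosome 16 from 14705945 to 14709488, Twist1 (ENSMUSG00000035799) on chromosome 12 from 34642536 to 34644682 and Cdh2 (ENSMUSG00000024304) on chromosome 18 from 16747386 to 16967755. All 4 are protein-coding genes, and Cdh2 is the only one of them annotated on the minus strand. Cdh2 spans 220370 bases with up to 16 annotated exons. The other three span 2147 to 4620 bases with 2 or 3 exons.

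Snai1 and Snai2 encode zinc finger transcription factors of the Snail family, which bind E-box sequences and repress epithelial genes such as that of E-cadherin. Twist1 encodes a basic helix-loop-helix factor that acts as a dimer with E proteins and promotes the mesenchymal state. Cdh2 encodes N-cadherin, the adhesion protein of mesenchymal and neural cells, and is a product of that state and not a transcription factor. When fibroblasts are reprogrammed, a mesenchymal-to-epithelial transition is an early part of the change. The kinase Cdk9 is part of P-TEFb, through which polymerase II that has paused close to a promoter goes on to elongate.

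The sequences before the start sites of Snai1 and Twist1 are shown because the study concerns release of polymerase near promoters and because both transcripts declined over the same days. The RefSeq table (GRCm38.p6) held 2 of the 4 genes. Each line gives the 250 bases before the start of the gene, 5′ to 3′ on the plus strand, at chr2:167537945-167538194 for Snai1 and chr12:33957421-33957670 for Twist1. Capitals mark the matches to the motifs searched.
Snai1: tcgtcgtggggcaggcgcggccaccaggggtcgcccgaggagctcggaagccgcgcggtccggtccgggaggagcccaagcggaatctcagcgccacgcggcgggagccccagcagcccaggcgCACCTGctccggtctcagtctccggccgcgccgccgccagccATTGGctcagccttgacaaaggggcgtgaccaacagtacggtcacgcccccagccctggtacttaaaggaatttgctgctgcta
Twist1: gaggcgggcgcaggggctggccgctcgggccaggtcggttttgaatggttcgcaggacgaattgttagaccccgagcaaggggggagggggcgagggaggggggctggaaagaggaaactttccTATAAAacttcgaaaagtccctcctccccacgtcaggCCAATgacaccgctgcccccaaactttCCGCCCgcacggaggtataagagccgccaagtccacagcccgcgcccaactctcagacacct
Both strands were searched for the TATA box with the letters TATAAA, for CCAAT boxes, for the GC box with the letters GGGCGG and for the E-box with the letters CANNTG. The form CAGGTG, to which Snail factors bind, and the form CACGTG, to which Myc binds, are also E-boxes and so overlap the general motif. Snai1 held 1 E-box at -126 from the start, which is the Snail form read on the other strand, and 1 CCAAT box, read as ATTGG, at -84. Twist1 held 1 TATA box at -126, 1 CCAAT box at -89, 1 GC box, read as CCGCCC, at -62, and no E-box. Among 32851 mouse promoter windows, 12.4% held the TATA box, 33.8% the CCAAT box, 32.7% the GC box, 66.2% an E-box of any form, 17.2% the Snail form and 6.02% the Myc form. The Snai1 window held 27 CG pairs and the Twist1 window 18, against a median of 6 over all windows. These matches describe the letters of each window only.

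Snai1 and Snai2 are paralogs, and so are Twist1 and Twist2, so the stretches below show how far reads could be shared. They are coding sequence from GENCODE M21 (GRCm38), with capitals at the bases that are identical between the paralogs. The Snail pair is shown from coding base 1 to 90, and the Twist pair from 367 to 456 in Twist1 and from 229 to 318 in Twist2.
Snai1: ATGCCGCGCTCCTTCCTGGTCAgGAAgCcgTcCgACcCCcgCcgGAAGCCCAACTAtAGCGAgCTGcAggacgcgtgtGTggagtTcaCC
Snai2: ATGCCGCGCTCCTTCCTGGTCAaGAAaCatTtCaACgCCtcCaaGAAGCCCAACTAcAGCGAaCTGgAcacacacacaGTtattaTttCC
Twist1: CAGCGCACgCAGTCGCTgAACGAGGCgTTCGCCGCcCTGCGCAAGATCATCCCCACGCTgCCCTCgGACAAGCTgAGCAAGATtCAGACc
Twist2: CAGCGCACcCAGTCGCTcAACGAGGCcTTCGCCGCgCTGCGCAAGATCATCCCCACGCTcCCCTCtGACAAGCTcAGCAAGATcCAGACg
In these windows the Snail pair had 59 of 90 bases identical and the Twist pair had 81 of 90. Over the aligned coding sequences the identity was 72.2% between Snai1 and Snai2 and 84.2% between Twist1 and Twist2. The longest identical run of coding sequence was 22 bases for the Snail pair and 23 bases for the Twist pair. Over whole transcripts it was 23 bases for each pair. The read length is not given in the sources used here, and reads longer than these runs would hold at least 1 differing base. Whether that kept reads of the paralogs apart in the alignment was not tested.

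Levels are in FPKM, a fragment count scaled by transcript length and by library depth, which adjusts for transcript length and so can be compared between genes. The libraries listed 23236 to 24385 genes each, of which 4947 to 5292 stood at 1 FPKM or above, and the deposited bounds implied 8.79 to 12.95 M fragments per library. The 10 most abundant genes held 33.4% to 76.2% of the summed FPKM, with the highest share in control day 5 replicate 2, the only control library of day 5 that gives Snai1 and Twist1. The part of that share in the day 5 values was not tested. Where a library has no entry for a gene, the gene was taken to have no value there, not a value of 0. Snai1 and Twist1 were listed in 13 of 14 libraries, Snai2 in 12 and Cdh2 in 8. Control day 5 replicate 1 listed only Snai2 of the 4. Cdk9 itself was not analysed here.

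Over the days after infection the transcripts of all 4 genes became scarcer, and at day 10 Cdk9-DN cells held more Twist1 and Cdh2 than control cells did. Twist1 stood at 1.83 times and Cdh2 at 3.66 times the control mean, the second from 1 Cdk9-DN library. Snai1 and Snai2 passed no test between the vectors on any day. In bulk RNA, fewer cells of a type and less RNA per cell cannot be told apart.

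**Figure D1:**
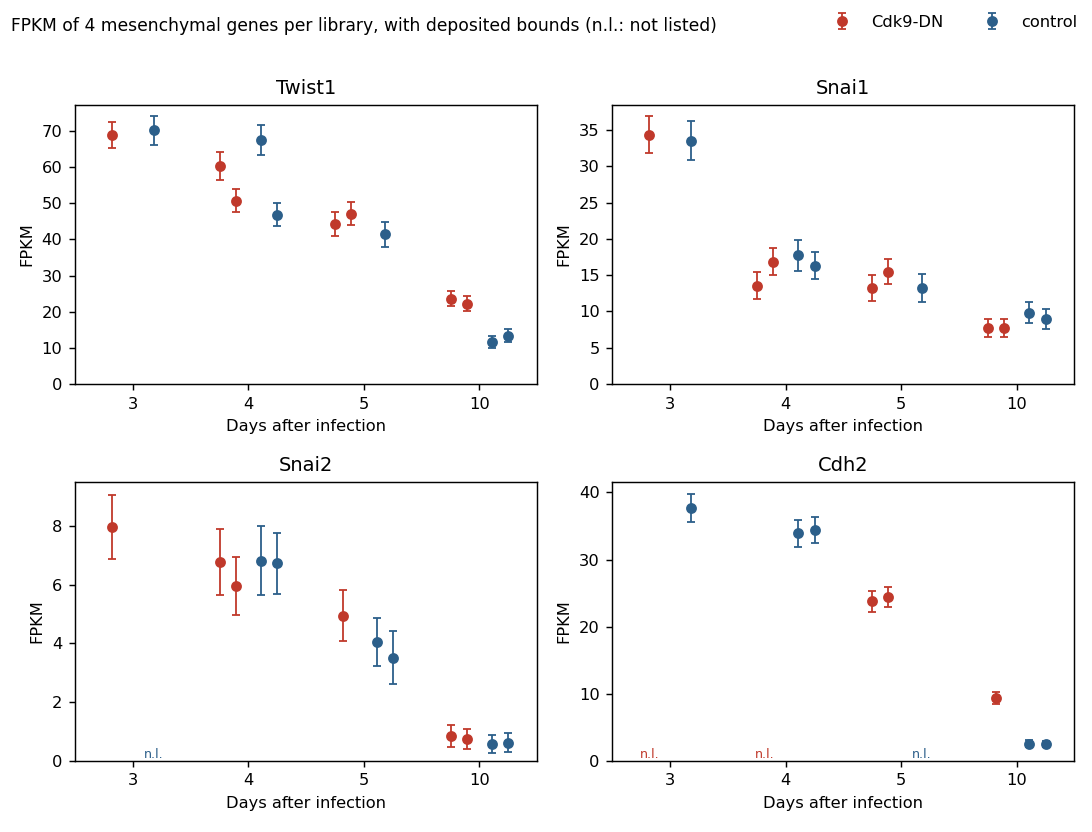
FPKM of each gene in each library, by days after infection (3, 4, 5 and 10), with Cdk9-DN libraries in red and control libraries in blue. Bars are the deposited lower and upper bounds, and n.l. marks a group with no listed value. At day 10 both Cdk9-DN libraries lie above both control libraries for Twist1 (22.2 and 23.6 against 11.6 and 13.4 FPKM).

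Twist1 was the most abundant of the 4 in every library that listed it. At day 3 it stood at 68.9 FPKM in the Cdk9-DN library and 70.2 FPKM in the control library. At day 4 it stood at 60.4 and 50.8 FPKM in Cdk9-DN cells and 67.6 and 46.9 FPKM in control cells. The vectors overlapped at day 4, and the control replicates lay further apart than the vectors did. The deposited bounds of the 2 control replicates did not overlap, and their ratio was 1.44. Of the 2749 genes at 5 FPKM or above in both of these libraries, 8.69% differed more between them. The paralog Twist2 differed by the same ratio of 1.44 between them. In Cdk9-DN cells of day 4 the bounds of the replicates did not overlap either. The ratio there was 1.19 for Twist1, with 22.1% of the 2798 genes above the same limit differing more, and 1.39 for Twist2. Replicate 1 was the higher in both vectors. At day 5, Twist1 stood at 44.2 and 47.2 FPKM in Cdk9-DN cells and 41.4 FPKM in the 1 control library that listed it. At day 10 it stood at 23.6 and 22.2 FPKM in Cdk9-DN cells and 11.6 and 13.4 FPKM in control cells, and here the vectors did not overlap.

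The vectors were compared within each day on log2(FPKM + 1) by a moderated fit in limma over 12 libraries, with p-values adjusted by the Benjamini-Hochberg method over all genes tested and a gene called at an adjusted p under 0.05. Fold changes on this scale understate those of low genes. At day 10 Twist1 was higher in Cdk9-DN cells by 0.83 on this scale (SE 0.178, adjusted p = 0.018), at the 92.8th percentile of the 5740 differences. The call was lost without control day 10 replicate 1 (0.73, adjusted p = 0.0888), without Cdk9-DN day 10 replicate 1 (0.79, adjusted p = 0.0833) and without Cdk9-DN day 10 replicate 2 (0.87, adjusted p = 0.0624). A fit of day 10 alone gave the same difference with an adjusted p of 0.051. The difference at day 4 was -0.02 (95% interval -0.46 to 0.41, adjusted p = 1) and that at day 5 was 0.14 (95% interval -0.39 to 0.67, adjusted p = 0.9).

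Cdh2 could be compared between the vectors at day 10 only, because no earlier day listed it under both. In control cells it stood at 37.7 FPKM at day 3 and at 33.9 and 34.4 FPKM at day 4. In Cdk9-DN cells it stood at 23.8 and 24.4 FPKM at day 5. At day 10 it stood at 9.35 FPKM in the 1 Cdk9-DN library that listed it and at 2.57 and 2.54 FPKM in control cells, and the deposited bounds of 8.48 to 10.2 FPKM lay far above those of both control libraries. The difference was 1.54 on the log2(FPKM + 1) scale (SE 0.0604, adjusted p = 0.00042), at the 97.5th percentile of all differences. The single Cdk9-DN library was assumed to vary like the other groups, since it has no replicate of its own.

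Snai1 showed its largest step before the days that could be tested. It stood at 34.4 FPKM in the Cdk9-DN library and 33.6 FPKM in the control library at day 3. At day 4 it stood at 13.5 and 16.9 FPKM in Cdk9-DN cells and 17.8 and 16.3 FPKM in control cells, which is 44.2% of the day 3 value in Cdk9-DN cells and 50.7% in control cells. With 1 library per vector at day 3 this step has no replicate check and was not tested. The other members stood at 79.9% to 90.6% of their day 3 value at day 4, where both days were listed. At day 5 Snai1 stood at 13.3 and 15.5 FPKM in Cdk9-DN cells and 13.2 FPKM in the 1 control library that listed it. At day 10 it stood at 7.71 and 7.68 FPKM in Cdk9-DN cells and 9.83 and 9.01 FPKM in control cells. Both Cdk9-DN libraries were thus below both control libraries at day 10, the opposite order to Twist1 and Cdh2. That difference of -0.26 did not pass the test (95% interval -0.55 to 0.03, adjusted p = 0.167), nor did those of -0.16 at day 4 (adjusted p = 0.895) and 0.11 at day 5 (adjusted p = 0.866).

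Snai2 was the least abundant of the 4 in every library that listed it beside another. It stood at 7.96 FPKM in the Cdk9-DN library of day 3 and was not listed in the control library of that day. At day 4 it stood at 6.77 and 5.95 FPKM in Cdk9-DN cells and 6.82 and 6.72 FPKM in control cells. The vectors overlapped there. At day 5 it stood at 4.93 FPKM in the 1 Cdk9-DN library that listed it and at 4.04 and 3.51 FPKM in control cells. At day 10 it stood at 0.842 and 0.751 FPKM in Cdk9-DN cells and 0.572 and 0.616 FPKM in control cells. Both Cdk9-DN libraries lay above both control libraries at day 10, but these values rest on few fragments, 21.2 and 19.3 in Cdk9-DN cells and 13.0 and 14.6 in control cells as the deposited bounds imply, and the bounds of all 4 overlap. The differences were -0.08 at day 4 (adjusted p = 0.936), 0.32 at day 5 (unadjusted p = 0.0281, adjusted p = 0.536) and 0.17 at day 10 (95% interval -0.05 to 0.39, adjusted p = 0.215).

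Counted together in limma, 2 of the 4 genes were called at day 10, both higher in Cdk9-DN cells, where 28.9% of all 5740 genes tested were called and 14.5% were called higher. At day 4, 0 of 3 were called, with 0 at an unadjusted p under 0.05, and 0.0336% of all genes were called. At day 5, 0 of 3 were called, with 1 at an unadjusted p under 0.05 (Snai2), and 0.169% of all genes were called. The calls of day 10 thus fell on the day on which many other genes also differed.

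**Figure D2:**
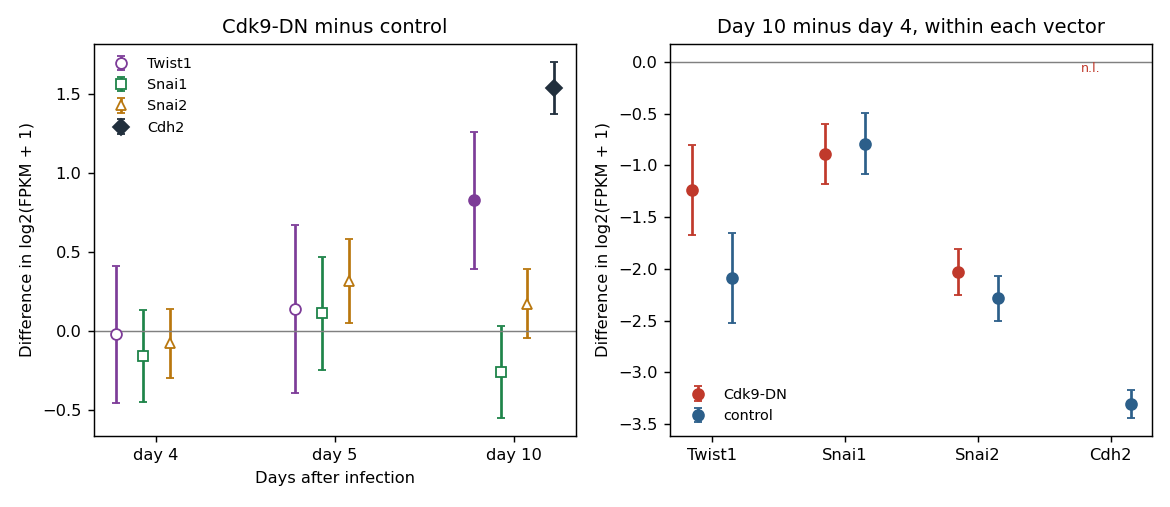
Differences in log2(FPKM + 1) with their 95% intervals: Cdk9-DN minus control at days 4, 5 and 10 on the left (filled symbols have an adjusted p under 0.05), and day 10 minus day 4 within each vector on the right, Cdk9-DN in red and control in blue (n.l., not listed). Between the vectors Twist1 (0.83) and Cdh2 (1.54) at day 10 are filled, and all differences over time on the right lie below 0.

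Within each vector, the later days were compared with the earlier ones. The comparisons of day 10 with day 4 were added once it was seen that no control library of day 5 lists Cdh2. The comparisons of one vector share their libraries, as do those of the vectors, so their values are given side by side. In Cdk9-DN cells all 3 genes tested fell between day 4 and day 10, where 13.5% of all genes were called lower, and in control cells all 4 fell, where 21.8% of all genes were called lower. The median change over all genes was 0.11 in Cdk9-DN cells and 0.07 in control cells.

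Of the 4 genes, Cdh2 changed most between day 4 and day 10 in control cells. Here its day 10 mean of 2.56 ± 0.02 FPKM was 7.48% of the day 4 mean of 34.1 ± 0.37 FPKM (SD, n = 2 libraries each), a change of -3.31 on the log2(FPKM + 1) scale (SE 0.0494, limma adjusted p = 7.42e-06). In Cdk9-DN cells, where day 4 was not listed, the day 10 value was 38.8% of the day 5 mean, a change of -1.28 (SE 0.0604, adjusted p = 3.64e-04). The starting days differ, so the 2 changes are not compared. Only 0.74% of all genes changed by a lower value than Cdh2 between days 4 and 10 in control cells.

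Snai2 fell in both vectors. Its day 10 mean was 12.5% of its day 4 mean in Cdk9-DN cells and 8.77% in control cells, changes of -2.03 (SE 0.0903, limma adjusted p = 2.29e-05) and -2.29 (SE 0.0903, adjusted p = 7.42e-06). Most of this lay between day 5 and day 10, with -1.72 in Cdk9-DN cells (adjusted p = 1.17e-04) and -1.58 in control cells (adjusted p = 3.63e-05). Between day 4 and day 5 Snai2 fell in control cells by 0.70 (SE 0.0903, adjusted p = 0.0135), and that call was lost without control day 4 replicate 1 (adjusted p = 0.0817), control day 4 replicate 2 (0.0703) or control day 5 replicate 2 (0.0762). In Cdk9-DN cells the change over the same step was -0.31 (unadjusted p = 0.0308, adjusted p = 0.22).

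Twist1 fell in both vectors as well. Its day 10 mean was 41.2% of the day 4 mean with Cdk9-DN and 21.8% with the control vector. The changes were -1.24 in Cdk9-DN cells (SE 0.178, limma adjusted p = 0.00249) and -2.09 in control cells (SE 0.178, adjusted p = 1.72e-04). From day 5 to day 10 they were -0.96 (adjusted p = 0.00763) and -1.66 (adjusted p = 0.00114) in the same order of vectors. Between day 4 and day 5 the changes of -0.27 in Cdk9-DN cells (adjusted p = 0.511) and -0.43 in control cells (adjusted p = 0.348) did not pass.

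Snai1 had the smallest change of the genes tested between day 4 and day 10 in each vector. Its day 10 mean was 50.6% of the day 4 mean in Cdk9-DN cells and 55.3% in control cells, changes of -0.89 (SE 0.121, limma adjusted p = 0.00199) and -0.79 (SE 0.121, adjusted p = 0.00213). From day 5 to day 10 it changed by -0.82 in Cdk9-DN cells (adjusted p = 0.00301) and by -0.45 in control cells (SE 0.148, adjusted p = 0.0448). The second call rests on 1 control library of day 5 and held in 7 of 16 alternatives, with the adjusted p between 0.0176 and 0.142. Between day 4 and day 5 the changes were -0.07 in Cdk9-DN cells (adjusted p = 0.843) and -0.34 in control cells (adjusted p = 0.27).

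By step, limma called 4 of 4 genes lower from day 5 to day 10 in Cdk9-DN cells, where 12.4% of all genes were called lower, and 3 of 3 in control cells, where 22.5% were. From day 4 to day 5 it called 0 of 3 in Cdk9-DN cells, with 1 at an unadjusted p under 0.05 (Snai2), where 3.28% of all genes were called, and 1 of 3 in control cells (Snai2), where 3.19% of all genes were called lower. No member was called higher at a later day in any of the comparisons between days.

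Whether the 2 vectors took different courses was tested as an interaction, the Cdk9-DN effect at the later day minus that at the earlier day. None of the 3 genes that could be tested passed at any pair of days in limma, and Cdh2 could not be tested. For day 10 minus day 4, Twist1 gave 0.85 (SE 0.252, 95% interval 0.24 to 1.47, unadjusted p = 0.0143, adjusted p = 0.0728), the only one of the 3 under 0.05 unadjusted, and 15.7% of all genes were called. Without control day 4 replicate 2, the lower of the 2 control replicates of that day, it gave 1.11 with an adjusted p of 0.0236. Snai2 gave 0.25 (adjusted p = 0.244) and Snai1 -0.10 (adjusted p = 0.75). For day 10 minus day 5, Twist1 gave 0.69 (unadjusted p = 0.0489, adjusted p = 0.163), again the only one of 3 under 0.05 unadjusted, Snai1 gave -0.37 (adjusted p = 0.256) and Snai2 -0.14 (adjusted p = 0.557), and 16.2% of all genes were called. For day 5 minus day 4, 1 of 3 had an unadjusted p under 0.05 (Snai2, 0.40, unadjusted p = 0.0313), all adjusted p-values were 0.975 or above, and 0.105% of all genes were called.

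The order of levels changed between the days, and at day 10 it differed between the vectors in the libraries that listed all members. Up to day 5, and in Cdk9-DN day 10 replicate 1, the order wherever the genes were listed was Twist1, Cdh2, Snai1 and Snai2 from high to low. In both control libraries of day 10, Cdh2 had dropped below Snai1. Cdh2 stood at 1.21 times the Snai1 level in the Cdk9-DN library of day 10 and at 0.262 and 0.282 times in the control libraries. At control day 4 that ratio was 1.91 and 2.11.

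Within a library, the ratio of Twist1 to Snai1 does not depend on how the library was scaled. At day 10 it was 3.07 and 2.89 in Cdk9-DN cells and 1.18 and 1.49 in control cells. At day 5 it was 3.34 and 3.04 in Cdk9-DN cells and 3.13 in the 1 control library, and at day 4 it was 4.46 and 3.01 in Cdk9-DN cells and 3.80 and 2.88 in control cells. The vectors overlapped in this ratio at days 4 and 5 and not at day 10. In control libraries of day 10 the levels of Twist1 and Snai1 were nearest each other, and the deposited bounds of the 2 genes overlapped in control day 10 replicate 1. The ratio of Snai1 to Snai2 was 9.15 and 10.2 in Cdk9-DN cells and 17.2 and 14.6 in control cells at day 10, against 2.001 to 2.834 at day 4 over both vectors. The Snai2 values of day 10 rest on 13.0 to 21.2 implied fragments per library, and their bounds overlap between the vectors. With 2 libraries per group these ratios were not tested.

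**Figure D3:**
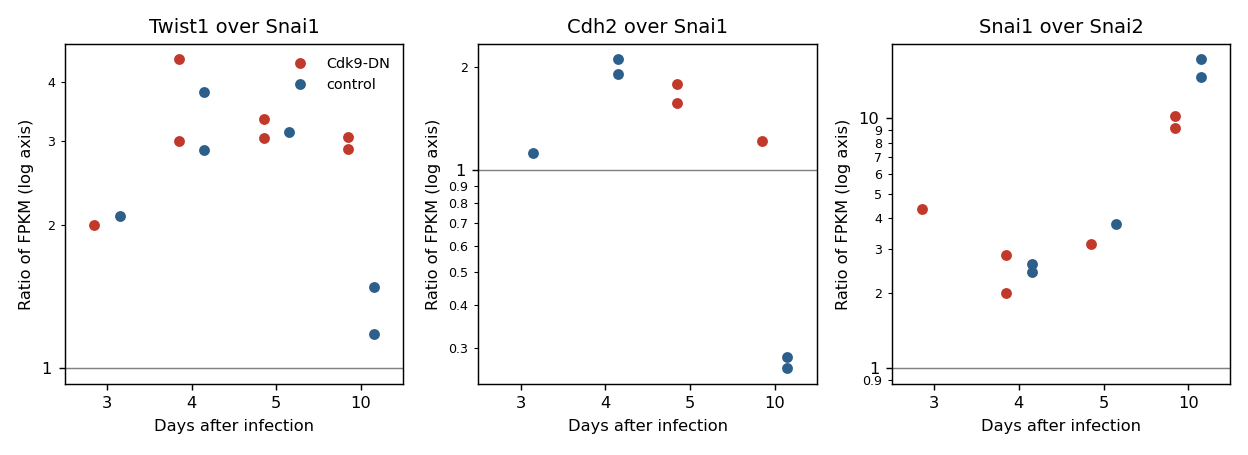
Ratio of the FPKM of 2 genes within each library, on log axes, by days after infection, with Cdk9-DN in red and control in blue. The grey line marks equal levels. Snai1 over Snai2 at day 10 rests on few Snai2 fragments. At day 10 Twist1 over Snai1 is 3.07 and 2.89 in Cdk9-DN libraries and 1.18 and 1.49 in control libraries, and Cdh2 over Snai1 lies above 1 in the Cdk9-DN library and below 1 in both control libraries.

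The other genes of the pathway were taken from fixed lists, of which the libraries listed a part. The lists too were chosen with earlier results of these data known. At day 10, 14.5% of all genes tested were called higher and 14.4% lower, and the count of each list stands against these shares. Where a vector had 1 library for a gene, its spread was taken from the other groups and the difference has no replicate check there. Of the other 17 transcription factors of the epithelial-to-mesenchymal transition, 8 were listed in any library, 6 passed the filter on low values, 3 were tested at day 10 and 0 were called in limma. Their median difference was 0.07, against 0 over all genes. Twist2, the paralog of Twist1, stood at 6.25 and 5.50 FPKM in Cdk9-DN cells and 2.68 and 4.13 FPKM in control cells at day 10. The vectors did not overlap, and the difference of 0.66 did not pass (SE 0.245, adjusted p = 0.0956). Twist2 fell between day 4 and day 10 in both vectors, with -1.96 in Cdk9-DN cells and -2.67 in control cells (adjusted p = 0.00145 and 2.34e-04). Foxc1, a forkhead factor of mesenchyme, stood at 2.55 and 2.35 FPKM in Cdk9-DN cells and 2.07 and 2.49 FPKM in control cells (0.07, adjusted p = 0.75).

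Among dimer partners of Twist and the Id proteins, which bind E proteins and so compete with Twist for them, 2 of 4 tested were called lower in Cdk9-DN cells and 0 higher, against 14.4% of all genes lower. Id1 stood at 185 and 172 FPKM in Cdk9-DN cells of day 10 and 347 and 331 FPKM in control cells (-0.92, SE 0.0562, limma adjusted p = 0.00128). Id2 stood at 30.7 and 29.6 FPKM in Cdk9-DN cells and 56.2 and 57.1 FPKM in control cells (-0.89, SE 0.0647, adjusted p = 1.65e-04). Both genes were thus lower with Cdk9-DN on the day Twist1 was higher, and a link between these differences was not tested. The others tested, Hand2 (0.30, adjusted p = 0.134) and Id4 (-0.06, 1 library in each vector), were not called. Among partners and turnover factors of Snail proteins 0 of 4 were called, with a median of 0.12. The 2 most abundant were Limd1, a LIM domain protein, with 0.18 (adjusted p = 0.0898) and Rcor1, a corepressor, with 0.16 (adjusted p = 0.324), each from 1 library in at least 1 vector.

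Of the other cadherins, 4 were tested at day 10. Of these, 3 were called lower in Cdk9-DN cells and 0 higher, with a median of -0.61, against 14.4% of all genes lower. The count is 2 of 3 among those with 2 libraries in each vector. Cdh6 stood at 0.802 and 0.897 FPKM in Cdk9-DN cells and 3.43 FPKM in the 1 control library that listed it (-1.26, limma adjusted p = 0.00244, with no control replicate). Cdh3, P-cadherin, an epithelial cadherin, stood at 0.904 and 0.811 FPKM in Cdk9-DN cells and 2.17 and 1.66 FPKM in control cells (-0.65, adjusted p = 0.00894). Cdh9 stood at 0.508 and 0.451 FPKM in Cdk9-DN cells and 1.23 and 1.20 FPKM in control cells (-0.58, adjusted p = 0.00588). These 3 levels are low beside the 9.35 FPKM of Cdh2 in Cdk9-DN cells. Cdh3 is also counted among the epithelial genes below. Cdh9, which is among the 2 of 3, reached the 1 FPKM of the filter in control libraries of day 10 alone. It entered the test through the group where it was high, so the direction of its call follows from the filter. E-cadherin, the catenins at day 10 and Zeb factors were not analysed here.

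Mesenchymal structural genes were mixed, with 1 called higher and 2 lower of 4 tested and a median of -0.17, against 14.5% of all genes higher and 14.4% lower. Lum, which encodes the matrix proteoglycan lumican, stood at 0.855 and 0.982 FPKM in Cdk9-DN cells and at 0.124 FPKM and a listed 0 in control cells (0.85, SE 0.181, limma adjusted p = 0.013). Cnn1, a calponin of contractile cells, stood at 1.54 and 1.45 FPKM in Cdk9-DN cells and 3.15 and 3.03 FPKM in control cells (-0.71, adjusted p = 0.00418). Itga5, a fibronectin receptor subunit, stood at 12.9 and 11.6 FPKM in Cdk9-DN cells and 16.8 and 16.7 FPKM in control cells (-0.42, adjusted p = 0.00613). Genes of this list thus lay on both sides, and Twist1 and Cdh2 lay on the side of Lum.

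Of 9 genes of upstream signalling tested at day 10, 1 was called higher and 4 were called lower in Cdk9-DN cells, with a median of -0.47, against 14.5% of all genes higher and 14.4% lower. Tgfbr2, a receptor of TGF-beta, which induces Snail and Twist genes in many cells, was the 1 higher gene, at 12.1 and 11.7 FPKM in Cdk9-DN cells and 8.76 and 8.38 FPKM in control cells (0.43, limma adjusted p = 0.00685). It is named although it falls outside the rule for named genes, having been picked after its value was seen. Among the ligands, Bmp2 (-1.03), Tgfb3 (-0.86) and Bmp7 (-0.56) were lower, as was the Notch target Hey1 (-0.76), with adjusted p-values of 0.00166, 0.00291, 0.00297 and 0.013 in that order. Tgfb3 stood at 5.29 and 4.98 FPKM in Cdk9-DN cells and 9.75 and 10.5 FPKM in control cells. Bmp7 reached the 1 FPKM of the filter in control libraries of day 10 alone, at 1.03 and 1.21 FPKM. The direction of its call thus follows from the filter.

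Epithelial genes were lower in Cdk9-DN cells at day 10. There, 13 of 13 tested were called lower, with a median of -1.37, against 14.4% of all genes called lower. Of these 13, 8 had 2 libraries in each vector, and 8 of these 8 were called. The other 5 (Cldn6, Dsg2, Krt8, Ovol1 and Prss8) had 1 library in at least 1 vector, and Dsg2 and Ovol1 compared 1 library with 1. Prss8 and Cldn1, which is among the 8, reached the 1 FPKM of the filter in control libraries of day 10 alone. They entered the test through the group where they were high, so the direction of their calls follows from the filter. Cldn1 stood at 1.25 and 1.12 FPKM in those control libraries. Krt18, an epithelial keratin, stood at 7.10 and 6.31 FPKM in Cdk9-DN cells and 86.6 and 83.8 FPKM in control cells (-3.49, limma adjusted p = 8.33e-06). Cldn4, a tight junction claudin, stood at 29.0 and 27.3 FPKM in Cdk9-DN cells and 102 and 98 FPKM in control cells (-1.79, adjusted p = 1.30e-05). Cldn6, another claudin, stood at 3.58 and 3.03 FPKM in Cdk9-DN cells and 24.8 FPKM in the 1 control library that listed it (-2.59, adjusted p = 4.03e-05, with no control replicate). Prss8, a membrane-anchored serine protease of epithelia, was listed at 0 in the 1 Cdk9-DN library and at 21.8 and 21.9 FPKM in control cells. At day 4 and day 5, 0 of 14 epithelial genes were called, where 0.0336% and 0.169% of all genes were called.

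**Figure D4:**
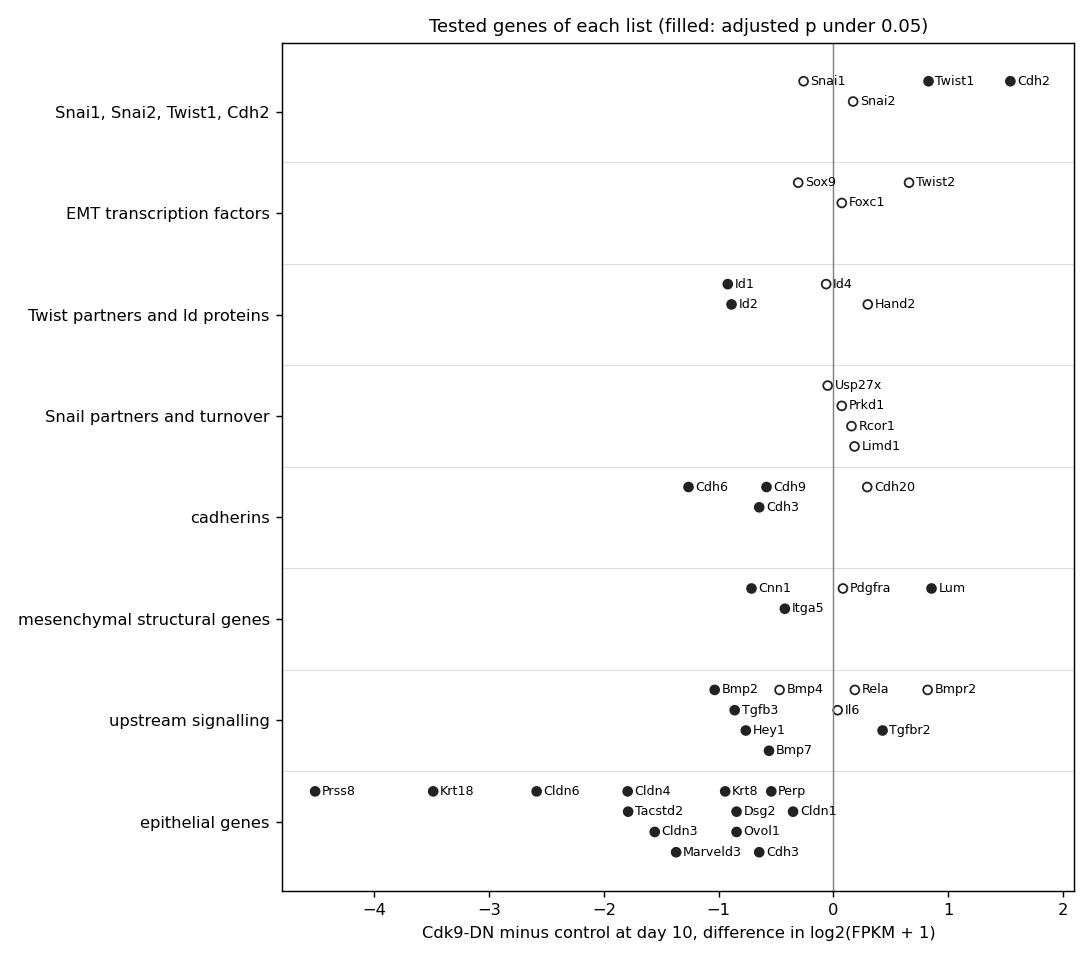
Difference at day 10 between Cdk9-DN and control cells in log2(FPKM + 1) for every tested gene of each list, with filled points at an adjusted p under 0.05. Prss8, Cldn1, Cdh9 and Bmp7 passed the filter on low values through control libraries of day 10 alone. Twist1 (0.83) and Cdh2 (1.54) lie right of 0, while all 13 epithelial genes and 3 of the 4 other cadherins are filled and lie left of it. Cdh3 is in both of these lists.

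Some markers of cell types differed between the vectors at day 10, and others did not. Of 6 epithelial genes listed in all 14 libraries, out of 35 in the list, the summed level at day 10 was 247 to 251 FPKM in Cdk9-DN cells and 565 to 569 FPKM in control cells, and it was 35.2 to 54.4 FPKM in all groups of earlier days. Of the 10 fibroblast markers 4 were tested, and 2 (Dcn and Lum) were called higher and 0 lower, against 14.5% of all genes higher and 14.4% lower. The others, Pdgfra (0.08, limma adjusted p = 0.578) and Thy1 (0.08, from 1 control library), were not called. Lum is also the higher gene of the structural list. The 2 listed in all libraries, Dcn and Lum, summed to 13.3 to 15.0 FPKM in Cdk9-DN cells and 3.85 to 4.42 FPKM in control cells of day 10. Thy1, a surface marker of fibroblasts, stood at 17.99 and 16.8 FPKM in Cdk9-DN cells and 16.3 FPKM in the 1 control library at day 10, against 73.3 FPKM in the 1 Cdk9-DN library and 83.6 and 81.9 FPKM in control cells at day 4. The part of these cell type differences, and of those below, in the Twist1 and Cdh2 results was not tested.

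Among markers of other cell types, 2 of 3 tested of keratinocytes and trophoblast were called lower in Cdk9-DN cells at day 10, against 14.4% of all genes. Sfn, the epithelial 14-3-3 protein stratifin, stood at 37.6 and 36.2 FPKM in Cdk9-DN cells and 74.9 and 68.1 FPKM in control cells (-0.94, limma adjusted p = 3.27e-04). Krt4, a keratin, stood at 0.649 and 0.459 FPKM in Cdk9-DN cells and 1.56 and 1.72 FPKM in control cells (-0.77, adjusted p = 6.94e-04). The other gene tested, Krt5, also a keratin, lay on the higher side and was not called (0.22, from 1 library in each vector). The 3 genes of this list that all libraries listed summed to 36.7 to 38.2 FPKM in Cdk9-DN cells and 69.8 to 76.5 FPKM in control cells, with Cdx2 below 0.1 FPKM throughout. The 1 endothelial gene tested was called lower, Cldn5, a claudin of endothelium, at 0.920 and 0.956 FPKM in Cdk9-DN cells and 3.77 and 3.60 FPKM in control cells (-1.27, adjusted p = 8.19e-05). Cldn5 and Krt4 reached the 1 FPKM of the filter in control libraries of day 10 alone. They entered the test through the group where they were high, so the direction of their calls follows from the filter. Cdh5, a defining endothelial cadherin, stood below 0.1 FPKM in every library, and Tek stood at 23.2 FPKM in the 1 Cdk9-DN library and 13.9 FPKM in the 1 control library of day 10 that listed it and was not tested. The 1 neural gene tested, Nes, the intermediate filament nestin, stood at 29.3 FPKM in the 1 Cdk9-DN library that listed it and 25.3 and 24.7 FPKM in control cells and did not pass (0.22, adjusted p = 0.0621). The immune genes Cd14 (-0.40, adjusted p = 0.134) and Lyz2 (-0.12, adjusted p = 0.539) and the bone and cartilage genes Bglap (0.25, adjusted p = 0.646) and Sox9 (-0.31, adjusted p = 0.593) did not pass, and Ibsp stood below 0.1 FPKM throughout. No muscle gene was tested at day 10. Mylpf, a myosin light chain, was listed at days 4 and 5 alone, at 1.95 to 11.4 FPKM. Myod1, Myog and Myf5 stood below 0.1 FPKM in every library, and Actc1 stood at 0.164 and 0.161 FPKM in Cdk9-DN cells and 0.853 and 0.814 FPKM in control cells. These marker genes were named after their values were seen.

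The genes whose levels over the libraries were most like those of each member were named by the Pearson correlation of log2(FPKM + 1), given as a description over libraries that share their days and vectors. For Twist1, over 13 libraries, they were Ctsk, the collagen-degrading cathepsin K (r = 0.981), Rprm (0.979) and Fzd1, a Wnt receptor (0.979). For Cdh2, over 8 libraries, they were Vcam1, a vascular adhesion molecule (r = 0.995), and the protocadherins Pcdh10 (0.994) and Pcdh18 (0.994). For Snai2, over 12 libraries, they were Cd276, an immune checkpoint ligand of the B7 family (r = 0.991), C1qtnf3 (0.990) and Fzd2, a Wnt receptor (0.984). For Snai1, over 13 libraries, they were Lyz2, the macrophage lysozyme (r = 0.974), Smoc2, a matricellular protein (0.967), and Cgref1 (0.939). Between 20 and 101 genes of the 716 to 857 compared reached r above 0.9, and the median r lay between -0.10 and -0.05.

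Among the members themselves, Twist1 and Cdh2 were the most alike (r = 0.984 over 8 libraries), followed by Snai2 and Twist1 (0.957 over 11) and Snai2 and Cdh2 (0.954 over 6). Snai1 was least like the others, with r = 0.859 to Snai2, 0.791 to Twist1 and 0.769 to Cdh2. Lyz2, the gene nearest to Snai1, was highest at day 3, with 9.21 FPKM in the Cdk9-DN library and 7.42 FPKM in the control library, and was at most 0.133 FPKM at day 10. Snai1 too was highest at day 3.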

How the data were processed

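RNA sequencing was used in 14 libraries of mouse embryonic fibroblasts. The deposited values are FPKM with a lower and an upper bound, computed by the authors, in 1 table per library. Per the submitters' processing notes, the tools were CASAVA 1.8.2, TopHat2 2.0.10 and Cufflinks 2.2.1 and the build was mm9 (NCBIM37). Starts in the tables count from 0, since the span then equals the annotated length for 7041 of 8298 genes with 1 exon (52 otherwise), and 1 was added. Fragments per library and per gene were implied from the bounds, assuming that these cover counting error alone.

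Entries of 1 gene identifier were summed, failed entries left out, and a gene kept if 2 or more of the 12 libraries of days 4, 5 and 10 gave it 1 FPKM or above (7460 genes, all 4 members among them). A cell means model of 6 groups was fitted on log2(FPKM + 1), a pseudocount of 1, with limma 3.58.1 in R 4.3.3, for each gene over its listing libraries. At least 2 residual degrees of freedom were required, variances were moderated along an intensity trend (prior degrees of freedom 1.15), and two-sided p-values were adjusted over all genes of the contrast. The 12 contrasts include 3 added after the listing was seen. Day 3 was not tested. The procedure was tested on simulated data with independent noise, which hold no effect shared by a whole library. The labels do not describe replicates as separate cultures, so p-values measure the spread between these libraries, which may be technical. Replicate numbers were not used to pair the samples. The correlation of replicate differences between groups ran from -0.222 to 0.212 over 15 pairs of groups. Such values cannot show whether replicates of the same number shared a culture or batch.

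Named genes were the members, up to 4 called genes of each list with the largest difference at day 10 (or, with fewer than 2 called, up to 2 of the highest mean), and the 3 named genes most correlated with each member. The members and lists were chosen with earlier results of these data known. One gene each of the mesenchymal structural and the neural list is not reported here and was left out of those lists' counts. Promoter windows came from RefSeq (GRCm38.p6) and coding sequences from GENCODE M21. Python 3.11.15, pandas 2.3.3 and Biopython 1.88 were used. Alternatives were another pseudocount, no filter, 2 other scalings, complete genes only, separate fits, a replicate block and leaving out each library.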

Additional observations from a re-analysis of the deposited data

How the results depend on the processing

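Of 674 alternative values for 39 member results, 649 kept their direction and their side of the threshold, 17 lost the call, 1 gained it and 7 changed sign, none of these 7 with a call on either side. The falls from day 5 to day 10 in Cdk9-DN cells, the falls from day 4 to day 10 in both vectors, and Cdh2 at day 10 kept theirs in all alternatives run. For Cdh2 at day 10 these were 16, against 18 for Twist1. A separate fit and leaving out its only Cdk9-DN library gave no value, so its dependence on that library could not be checked. Snai2 and Cdh2 from day 5 to day 10 in Cdk9-DN cells, each with 1 library on 1 day, also had 16. The cause of each change below was not tested, apart from the smaller number of genes or libraries that an alternative itself brings.

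The higher Twist1 level in Cdk9-DN cells at day 10 gave 0.829 (adjusted p = 0.051) in a separate fit of the groups compared, and 0.734 to 0.923 when single libraries were left out, with the call lost without control day 10 replicate 1 and without either Cdk9-DN day 10 replicate. The fall of Snai2 in control cells between days 4 and 5 gave -0.705 (adjusted p = 0.157) in a separate fit and -0.784 to -0.625 with single libraries left out, with the call lost without either control day 4 replicate and without control day 5 replicate 2. The fall of Snai1 in control cells between days 5 and 10 gave -0.45 (adjusted p = 0.0713) with no filter on low values, -0.424 (0.0887) under quantile normalization, -0.422 (0.0861) with the replicate number as a block, and -0.506 to -0.393 with single libraries left out, with the call lost without any one of the control day 4, control day 10 and Cdk9-DN day 10 libraries. The Twist1 difference at day 4 was 0.0098 under median-of-ratios scaling and ran from -0.282 to 0.235 with single libraries left out. It was 0.235 without control day 4 replicate 1 and 0.0999 without Cdk9-DN day 4 replicate 2. In the same way Snai1 in Cdk9-DN cells between days 4 and 5 ran from -0.22 to 0.0773, with 0.0773 without Cdk9-DN day 4 replicate 2 and 0.0343 without Cdk9-DN day 5 replicate 1. The Cdk9-DN effect of day 5 minus day 4 ran from -0.0971 to 0.42 for Twist1. That of day 10 minus day 4 ran from -0.247 to 0.0498 for Snai1 and from 0.593 to 1.11 for Twist1, called (adjusted p = 0.0236) without control day 4 replicate 2.

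Counts of called genes over all genes moved more. With only genes listed in all 12 libraries, which gives no value for any member since none is listed in all 12, the counts for Cdk9-DN minus control were 1, 3 and 768 at days 4, 5 and 10, against 2, 10 and 1658. For later minus earlier days they were 46 (day 5 minus 4), 1058 (day 10 minus 5) and 1141 (day 10 minus 4) in Cdk9-DN cells and 86, 1485 and 1498 for the same steps in control cells, and 385 (day 10 minus 5) and 396 (day 10 minus 4) for the Cdk9-DN effect. In separate fits they were 7 at day 4 and 357 at day 10 for Cdk9-DN minus control, 41, 1287 and 1227 for the steps in Cdk9-DN cells, 26, 1643 and 1559 for those in control cells, and 17 (day 5 minus 4) and 577 (day 10 minus 4) for the effect. No filter on low values gave 19 at day 4, 24 at day 5 and 28 for the effect of day 5 minus 4, and a pseudocount of 0.1 gave 6 at day 4. With the replicate number as a block the counts were 6 at day 5, 88 for day 5 minus 4 in Cdk9-DN cells and 155 for it in control cells. The block changed no other member call, and whether the numbers pair the samples is not known.

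With single libraries left out, the counts for Cdk9-DN minus control ran from 1 to 9 at day 4, 9 to 19 at day 5 and 930 to 1540 at day 10. They ran from 37 to 179 for day 5 minus 4 in Cdk9-DN cells and from 37 to 267 in control cells. For the effect they ran from 7 to 15 (day 5 minus 4), 498 to 796 (day 10 minus 5) and 508 to 774 (day 10 minus 4). Scaling moved the split of calls. For day 10 minus day 4, 64.4% of the calls in Cdk9-DN cells were higher, against 45.3% under median-of-ratios scaling, which moved the median difference of all genes from 0.106 to -0.0372, and in control cells 56.4% were higher, against 41.4% under quantile normalization. Each member with a value for these steps fell under both scalings.

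Depth limits Snai2 at day 10, where the bounds imply 13.0 to 21.2 fragments per library. Missing entries limit Cdh2, for which days 3 to 5 give no comparison of the vectors, and control cells of day 5 give Snai1 and Twist1 from 1 library.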
